A study of Mus musculus with 8 samples.

Results

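CpG-poor promoters were defined here as the 500 bp to either side of the annotated start of an autosomal protein-coding gene (GENCODE M21, GRCm38) with 3 to 10 CpGs covered by at least 5 reads in every one of the 4 files. Genes whose symbols begin with Olfr or Vmn (olfactory and vomeronasal receptors) were set apart, which left out 746 promoters that met the CpG limits. This gave 2757 of 20807 autosomal protein-coding promoters (13.3%). The rule uses the position and coverage of CpGs and no methylation level. DNA came from spleens of female and male C57BL/6J mice, an inbred strain, at 6 to 8 weeks of age. Resting B cells (CD43-) and naive CD4+ T cells were purified from each sex, which gave 4 groups of 2 samples each, with 1 file for each sex and cell type. The paper states that each biological replicate pooled cells of several mice, so the levels do not show variation between single animals. Whether a file merges both samples of its group is not stated, so the B and T cell contrast was seen once per sex and there was no spread between replicates of a group. Methylation was read by whole-genome bisulfite sequencing, in which unmethylated cytosines are converted and the methylation level is the share of reads that stayed unconverted. 5-methylcytosine and 5-hydroxymethylcytosine are read alike. Where a pair of levels is given for a cell type, the female value stands first and the male value second.

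Most mammalian CpGs are methylated in somatic cells. The CpG islands at the starts of broadly used genes escape this, and they make up most promoters. Promoters outside islands hold few CpGs, and they serve many genes of a single tissue or lineage, such as receptors, secreted proteins and enzymes. At such promoters the few CpGs are commonly methylated in cells where the gene is silent and unmethylated where factors are bound, so lineage identity can often be read from them.

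The 4 files covered an autosomal CpG by a mean of 14.6 to 17.7 reads, and the median CpG-poor promoter held 95 and 106 reads in B cells and 116 and 114 reads in T cells. A level from about 100 reads carries a counting error of several points, and intervals given here cover counting error only. In the same windows, the starts of all 8 B cell marker genes had lower levels in B cells and 5 of them were called, while all 10 T cell marker genes had lower levels in T cells and 9 were called. Of 12 markers of other cells, Cd8a, Cd8b1 and Gzma were called lower in T cells and the others were not called. Of the CpG-poor promoters, 227 held more than 10 CpGs in the reference sequence, 16 of them more than 30, and had entered through uncovered CpGs, and 72 shared CpGs with the window of another gene. In 369 genes at least 1 annotated start, in a few cases the one used here, held more than 30 CpGs (a CpG-rich annotated start).

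A few promoters show what such sequences look like and which CpGs carry the levels given below. Ms4a1 and Fcmr were chosen as the promoters most methylated in T cells relative to B cells, Cd3g and Themis as their counterparts in the other direction, Ly9 and Ptprc as unmethylated in both cell types, and Csn2 as a gene of another tissue. Each stretch of 300 bases was placed to hold the most covered CpGs of the window, and is printed on the strand of the gene, 5′ to 3′, with CpGs in capitals. All were read from the GRCm38 reference. Ms4a1 is at chr19:11266377-11266676 (minus strand), Fcmr at chr1:130865523-130865822 (plus), Cd3g at chr9:44979955-44980254 (minus), Themis at chr10:28668349-28668648 (plus), Ly9 at chr1:171607152-171607451 (minus), Ptprc at chr1:138175443-138175742 (minus) and Csn2 at chr5:87699442-87699741 (minus).
Ms4a1: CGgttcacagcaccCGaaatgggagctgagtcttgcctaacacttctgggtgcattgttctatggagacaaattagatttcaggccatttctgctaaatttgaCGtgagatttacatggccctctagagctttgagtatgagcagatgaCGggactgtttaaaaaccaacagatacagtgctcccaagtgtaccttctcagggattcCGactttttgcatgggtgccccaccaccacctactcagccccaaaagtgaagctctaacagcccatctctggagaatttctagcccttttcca
Fcmr: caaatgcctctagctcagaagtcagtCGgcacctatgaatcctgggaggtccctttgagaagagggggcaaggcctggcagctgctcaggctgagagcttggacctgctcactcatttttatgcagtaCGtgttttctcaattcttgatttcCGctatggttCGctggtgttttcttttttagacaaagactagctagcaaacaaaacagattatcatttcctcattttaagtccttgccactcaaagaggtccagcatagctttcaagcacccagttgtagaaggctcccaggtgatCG
Cd3g: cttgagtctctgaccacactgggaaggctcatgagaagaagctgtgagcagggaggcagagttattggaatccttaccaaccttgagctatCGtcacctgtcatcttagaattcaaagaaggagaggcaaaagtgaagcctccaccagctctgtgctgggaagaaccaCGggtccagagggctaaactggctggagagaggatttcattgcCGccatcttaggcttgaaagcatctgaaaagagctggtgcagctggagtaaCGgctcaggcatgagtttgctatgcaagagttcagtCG
Themis: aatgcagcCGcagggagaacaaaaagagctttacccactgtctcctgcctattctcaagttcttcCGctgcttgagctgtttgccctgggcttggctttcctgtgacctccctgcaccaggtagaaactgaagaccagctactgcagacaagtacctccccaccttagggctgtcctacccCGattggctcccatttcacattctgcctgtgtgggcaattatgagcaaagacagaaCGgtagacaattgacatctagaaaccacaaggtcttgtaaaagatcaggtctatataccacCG
Ly9: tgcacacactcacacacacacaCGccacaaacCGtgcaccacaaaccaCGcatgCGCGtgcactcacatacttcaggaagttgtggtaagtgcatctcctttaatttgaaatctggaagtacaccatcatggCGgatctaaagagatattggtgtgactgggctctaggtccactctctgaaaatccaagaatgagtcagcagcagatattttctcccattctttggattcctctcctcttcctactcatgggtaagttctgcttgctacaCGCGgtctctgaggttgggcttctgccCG
Ptprc: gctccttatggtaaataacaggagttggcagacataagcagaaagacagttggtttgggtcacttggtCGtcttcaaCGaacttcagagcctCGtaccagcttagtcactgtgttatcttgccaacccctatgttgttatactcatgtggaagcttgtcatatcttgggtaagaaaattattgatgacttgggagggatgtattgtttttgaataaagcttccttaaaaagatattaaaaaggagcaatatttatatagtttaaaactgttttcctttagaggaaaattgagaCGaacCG
Csn2: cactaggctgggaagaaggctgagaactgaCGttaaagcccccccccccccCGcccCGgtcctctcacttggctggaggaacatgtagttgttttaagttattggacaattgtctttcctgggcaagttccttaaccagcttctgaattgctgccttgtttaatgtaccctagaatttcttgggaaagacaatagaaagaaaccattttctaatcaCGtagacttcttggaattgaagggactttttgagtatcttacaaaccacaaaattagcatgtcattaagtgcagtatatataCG

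Counted from the annotated start on the strand of the gene, the stretch of Ms4a1 runs from base -435 to -136 and that of Cd3g from 177 to 476. All 8 covered CpGs of Ms4a1 switched together: each was at 0% in both B cell files, apart from 6.67% (1 of 15 reads) at base -421 in females, and each was between 83.9% and 100% in the T cell files. The 5 covered CpGs of Themis were at 0% in both T cell files and between 57.9% and 90.5% in the B cell files, the lowest being the CpG at base -3. At Cd3g the switch was not uniform. Of its 10 covered CpGs, 9 were between 75% and 100% in B cells, while the CpG at base -106 was at 10% and 12.5% in B cells, over 10 and 8 reads, and at 9.09% and 0% in T cells. The CpG at base -462, the farthest upstream, was at 16% and 24% in T cells, where the other 8 were at 0%. At Ly9 and Ptprc all CpGs but 1 were at 0% in all 4 files, with 1 methylated read each in 631 and 295 reads. Csn2, which encodes the milk protein beta-casein, had 5 covered CpGs and was methylated, at 84.5% and 80.8% in B cells and 88.0% and 81.1% in T cells, its lowest CpG (base -81) being at 40% over 5 reads in male T cells.

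Methylation was the usual state of CpG-poor promoters. The median level was 85.6% in both B cell files and 85.9% and 85.7% in T cells. Between 64.1% and 65% of the promoters were at 80% or above in a given file, and between 4.53% and 5.15% were at 20% or below. In all 4 files at once, 1465 (53.1%) were at 80% or above, 83 (3.01%) were at 20% or below, and the other 1209 lay between or crossed a limit. The 15924 promoters with more than 10 covered CpGs had medians of 2.39% to 2.75%, and 77.4% to 77.8% of them were at 20% or below. Within 3 to 10 CpGs the level varied little with CpG number: promoters with 3 CpGs had a median of 84.6% in B cells and those with 10 CpGs one of 85.7%. Promoters just outside the limits were alike, with B cell medians of 84.5% at 2 CpGs and 85.1% at 11 CpGs. The median fell to 24.7% at 21 to 30 CpGs and 0.637% above 60.

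**Figure D1:**
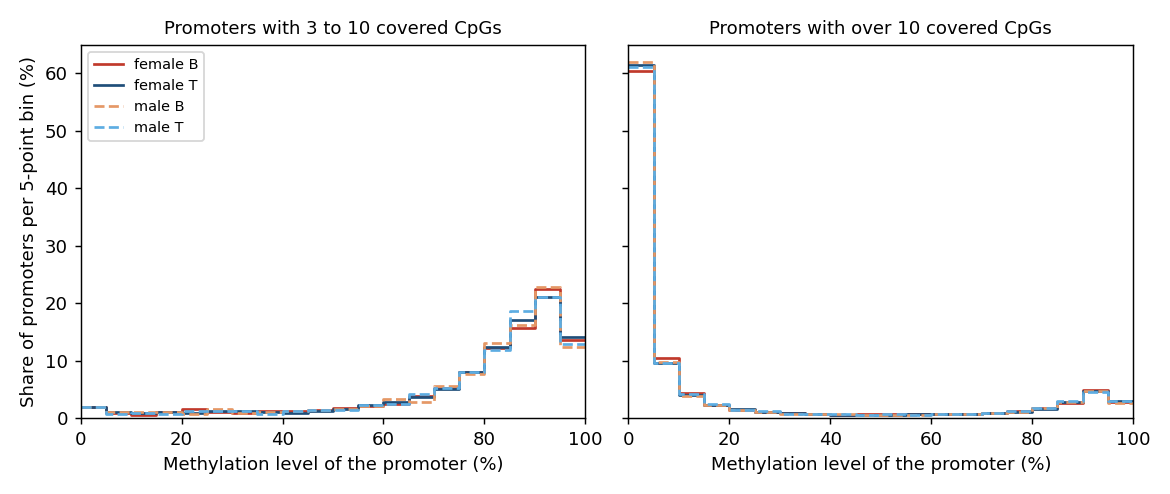
Share of promoters (%) in each 5-point bin of methylation level (%), for promoters with 3 to 10 covered CpGs (left) and with over 10 (right), 1 line per file. The CpG-poor promoters peak above 80% in all 4 files, with medians of 85.6% to 85.9%, and the CpG-richer ones peak near 0%.

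Single promoters were also steady between files. The range over the 4 files had a median of 7.59 points and a 90th percentile of 18.2 points. Its median was 4.93 points among the 83 unmethylated promoters, 5.52 points among the 1465 methylated ones and 12.4 points among the other 1209, which include promoters that crossed a limit. Levels of CpGs within a promoter also spread more in the last group, and both spreads are bounded by the level limits that define the first 2 classes. The median SD between CpGs of a promoter in female B cells was 8.94 points in methylated promoters, 6.32 points in unmethylated ones and 23.9 points in the 1109 others that were not called between B and T cells. In these 1109 the median range between the lowest and the highest CpG of a promoter was 58.0 to 60 points over the 4 files.

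Levels also varied with distance from the start. In the 83 unmethylated promoters, CpGs within 100 bp upstream of the start had mean levels of 1.37% to 1.80% over the 4 files, and CpGs in the bin farthest upstream (bases -1000 to -901), outside the window used for selection, had 73.1% to 76.8%. Downstream the level stayed low, at 13.8% to 14.9% between 900 and 1000 bp. That bin held 108 covered CpGs of 43 promoters, against 44 of 27 promoters in the bin farthest upstream. These means are over CpGs, so promoters with many CpGs there weigh more. In the intermediate promoters not called between B and T cells, the mean level was 81.9% to 82.2% in the bin farthest upstream, 55.0% to 56.4% in the last 100 bp before the start and 70.1% to 70.5% at 300 to 399 bp downstream, and it was lower again, at 60.5% to 61.2%, at 900 to 1000 bp downstream. The methylated promoters showed no such dip, with 90.1% to 90.4% in the last 100 bp before the start. The promoters lower in B cells, which the calls below define, were at 18.8% in both B cell files there, and T cells dipped too, to 53.0% and 55.9%. Those higher in B cells were at 53.3% and 56.1% in B cells and 12.6% and 13.3% in T cells. Levels inside the window of 500 bp are in part fixed by how these classes were formed, while the position of the lowest point is not.

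**Figure D2:**
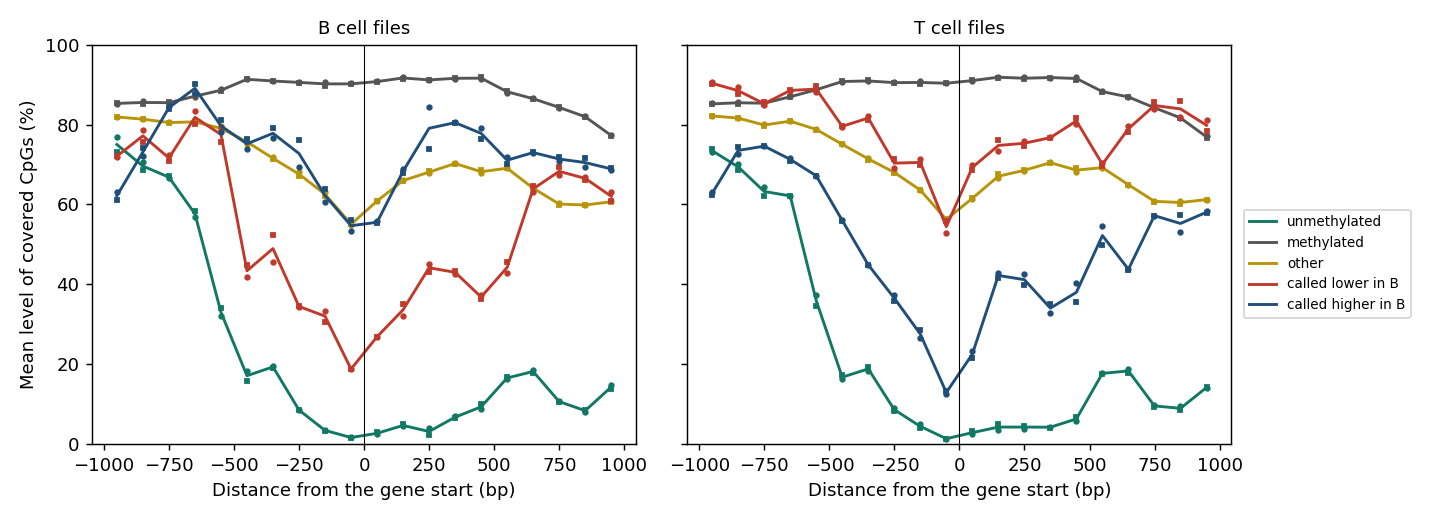
Mean methylation level of covered CpGs (%) in 100 bp bins by distance from the gene start (bp, negative upstream), for classes of CpG-poor promoters, in B cell files (left) and T cell files (right). Lines are the mean of both sexes, circles female and squares male files. The unmethylated promoters are lowest in the last 100 bp before the start (1.37% to 1.80%), and the intermediate ones dip there to 55.0% to 56.4%.

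The composition of the CpG-poor promoters is given as a description. Their median GC content was 45.2% against 55.8% over all 19427 promoters with 3 or more covered CpGs, and a mean of 19.3% of their window was soft-masked as repeat against 11.7%. The TATA-box letters TATAAA, searched on the strand of the gene 40 to 15 bases upstream of the start, were present in 6.06% against 2.21%. The Sp-factor motif GGGCGG, searched on both strands from 250 bases upstream to 50 downstream, was present in 6.46% against 46.7%. GGGCGG holds a CpG and GC content goes with CpG number, so these differences are in large part fixed by the choice of promoters with few CpGs. Among the CpG-poor promoters, TATAAA was found in 6.35% of the methylated ones and 1.20% of the unmethylated ones, which is 1 promoter of 83 (Ccl4). Median GC content was 44.6% and 46.8% in these classes.

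Genes of other tissues had levels near those of CpG-poor promoters in general. At 80% or above in all files were 7 of 12 liver genes, 4 of 7 pancreas genes, 4 of 5 muscle genes and 3 of 5 milk protein genes, against 53.1% of all CpG-poor promoters. None of these was at 20% or below in all files (3.01% of all) and none was called between B and T cells (3.63% of all), which for lists this short is near the share over all. The same holds for 3 eye and 2 epidermis genes. The 9 erythroid, platelet and mast cell genes were lower, with medians of 69.96% in B and 66.9% in T cells and 2 at 80% or above in all files, and none was called. The bile acid enzyme gene Cyp7a1 was at 93.3% and 89.0% in B cells and 92.5% and 94.2% in T cells. The insulin gene Ins2 was at 92.2% and 92.7% in B cells and 93.3% and 95% in T cells, and the whey protein gene Wap at 97.6% and 95.5% in B cells and 95.1% and 96.6% in T cells. Several families of specialised genes lay close to the median of all CpG-poor promoters, while others lay below it. None was called and none was unmethylated among 25 bitter taste receptor genes (Tas2r), 22 beta-defensin genes, 24 hair keratin-associated genes (Krtap), 26 Sprr and Lce skin barrier genes, 19 prolactin-family genes and 14 Mup pheromone carrier genes, and their medians ran from 84.0% to 90.5%. In some other families a single promoter was unmethylated or called, which for lists this size is near the 3.01% and 3.63% over all. Of 14 Mrgpr genes 1 was unmethylated (Mrgpra6), and 1 each was called among 52 Cyp, 33 Serpin and 20 Ceacam and Psg genes (Cyp4f18, Serpinb9 and Ceacam1). The 4 alpha-defensin genes had medians of 58.5% in B and 58.2% in T cells. Medians were also lower for 13 Ccl chemokine genes (68.8% and 70.3%), 9 Fc receptor genes (55.8% and 71.4%) and 3 Gimap genes (41.3% and 29.1%). Of the 9 Fc receptor genes 4 were called lower in B cells (2.07% over all), and of the 3 Gimap genes 1 was called higher (1.56%). Of 13 Ms4a genes 1 was called higher and 2 lower, and of 16 Trim genes 2 were unmethylated.

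The 16 myeloid genes had medians of 73.6% in B and 73.4% in T cells. None was called, which for 16 genes is near the 3.63% called over all CpG-poor promoters. The lysozyme gene Lyz2 was lowest, at 15.7% and 22.5% in B cells and 29.1% and 22.6% in T cells. Mpo, the myeloperoxidase of neutrophils, was at 37.5% and 40.8% in B cells and 37.2% and 41.1% in T cells. S100a8 and S100a9, which encode the calprotectin subunits, lay between 71.7% and 77.9%. Of 4 helper T cell cytokine genes none was called, and their median was 91.2% in B and 86.4% in T cells. Il2, the T cell growth factor, was at 76.9% and 74.7% in B cells and 57.9% and 55.2% in T cells (19.3 points, adjusted p = 0.0512), outside both limits of the call.

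The 83 promoters at 20% or below in every file included genes used across white blood cells. Evi2b, a leukocyte membrane protein gene (chr11:79523262-79524262), had 0 methylated reads in 611 over the 4 files, which allows a level of up to 0.491%. Ly9, a SLAM-family receptor, had 1 in 631, and Ptprc, which encodes the leukocyte phosphatase CD45, had 1 in 295. Hcls1, a haematopoietic cortactin-like protein gene (chr16:36934483-36935483), was at 0.515% and 0% in B cells and 1.21% and 0.966% in T cells. The 15 promoters with the lowest upper limit of the pooled level also held Traf3ip3, Tespa1, Rcsd1, Pik3ip1, Clec2i and Btla, the last of these an inhibitory receptor of both B and T cells at 0% to 1.90%. None of these was called between B and T cells, which the 20-point limit of the call fixes for levels this low.

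The same 15 included promoters whose window or gene also held many uncovered CpGs or a CpG-rich start. The histone genes Hist2h3c1 and Hist2h3c2 had 9 and 7 covered CpGs among 105 and 104 in the reference, and Gm13290 had 9 among 56. Cnot6l, a subunit of a deadenylase complex, and Mbnl1, a splicing regulator, had 0 methylated reads in 404 and 338 and each had a CpG-rich annotated start, as had Pik3ip1 and Rcsd1. Of the 83, 22 had more than 10 reference CpGs and 24 had a CpG-rich annotated start. With 3 to 10 reference CpGs and no such start, 53 remained. Of the 83, 8 shared CpGs with the window of another gene. Tcte3, Gm3448 and Ermard held the same reads and are not separate measurements, and the same is true of Gm49391 and Ctla2a.

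Further unmethylated promoters were chosen for naming after their values were seen, and no theme was tested over the 83, which also hold genes such as Fjx1, Hmx2, Nav2 and Mrgpra6. Lcp2, the adaptor SLP-76, was at 6.11% and 5.61% in B cells and had no methylated read in T cells. Cd52 and Cd53, surface proteins of leukocytes, lay between 0% and 20%. The interferon-inducible genes Gbp2, Gbp3, Mx1, Trim21, Ifi206, Ifi209, Mndal and Uba7 lay between 0% and 14.3% in all files, and Ifi214 reached 18.8%. Other interferon-inducible genes were outside the 83. Ifi47 was at 5.41% and 2.78% in B cells and 36.5% and 50.4% in T cells, and Ifit3 had no methylated read in B cells and was at 31.1% and 21.1% in T cells, both called lower in B cells, while Gbp6 was called higher. Rag2, a subunit of the recombinase that is used in lymphoid progenitors, was at 6.41% and 5.31% in B cells and 7% and 5.61% in T cells. Klrd1, a subunit of NK cell receptors, was at 9.84% to 15.1%, and the chemokine gene Ccl4 at 6.70% to 16.9%.

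**Figure D3:**
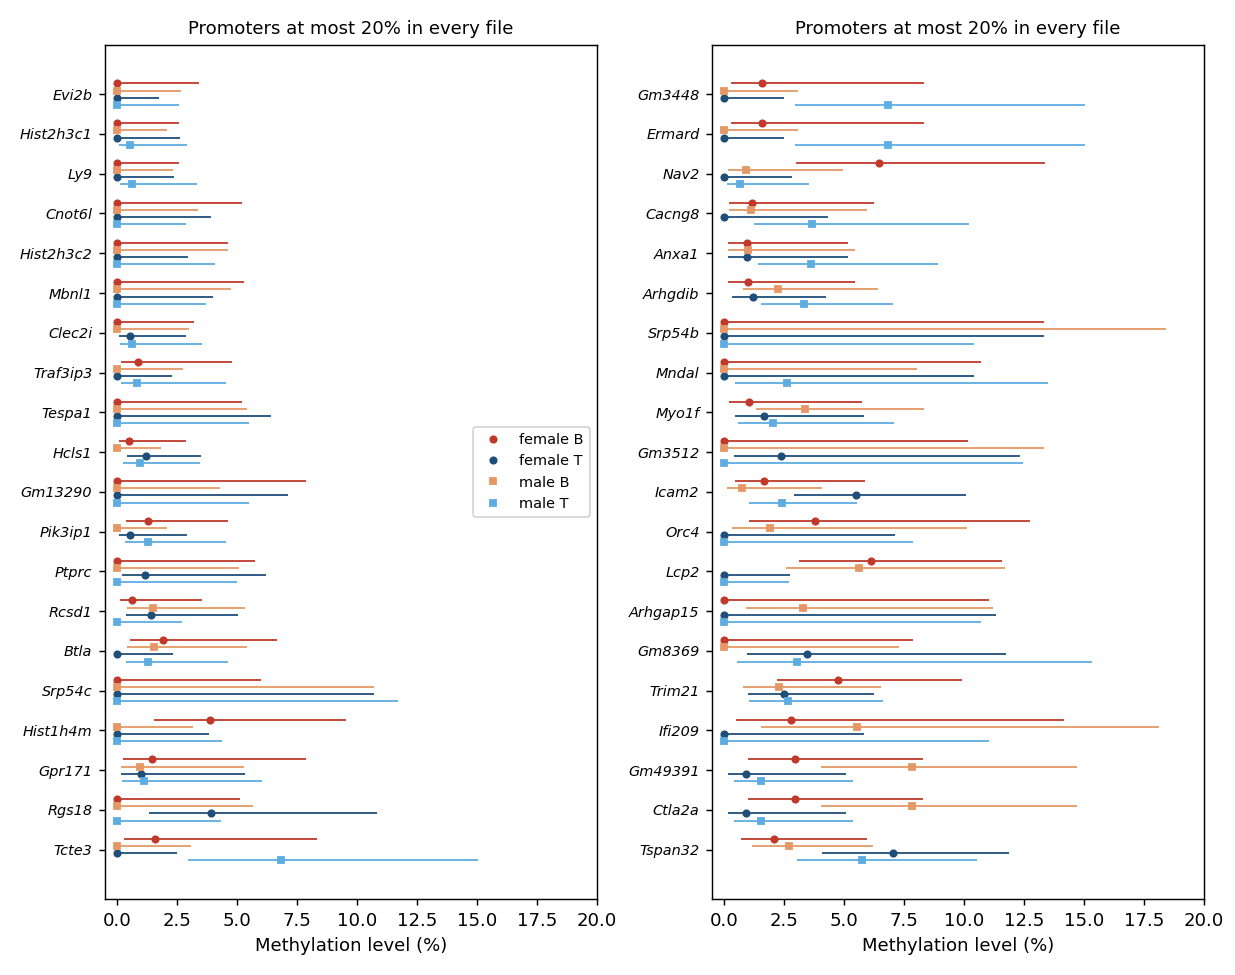
Methylation level (%) in each file, with the Wilson 95% interval of its reads, for the 40 CpG-poor promoters with the lowest upper limit among those at 20% or below in every file. Evi2b, Cnot6l, Mbnl1 and Tespa1 are among those at 0% in all 4 files, and no point exceeds 8%. Tcte3, Gm3448 and Ermard show the same reads, as do Gm49391 and Ctla2a.

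B and T cells differed at a small share of CpG-poor promoters. A promoter was called where the quasi-binomial test gave an adjusted p under 0.05 over all 19427 promoters tested and the mean of the female and male differences was 20 points or more. This held for 100 CpG-poor promoters of 2757 (3.63%), against 1.32% of all tested promoters and 0.980% of those with more than 10 CpGs. A promoter at 20% or below in every file can hardly reach the 20-point limit. Such promoters made up 12208 of the 19427 tested but only 83 of the 2757. The shares called, in either direction, are therefore not directly comparable, and no higher rate at CpG-poor promoters can be read from them. Calls were not particular to these CpG limits: of 325 promoters with 11 CpGs, 6 were called higher and 8 lower in B cells. Within the limits, the counts were 3 and 2 of 320 at 3 CpGs and 7 and 10 of 359 at 10 CpGs. Of the 100, 43 were higher in B cells (1.56%, background 0.633%) and 57 lower (2.07%, background 0.69%). All 100 differed in the same direction in both sexes, with no overlap between B and T files, which the 2 conditions of the call largely fix. Most differences were partial: 42 were between 20 and 30 points and 22 reached 50 points. The promoters lower in B cells had mean levels of 32.6% and 33.5% in B cells and 71.1% and 72.1% in T cells, and those called higher had mean levels of 70.9% and 70.7% in B cells and 33.6% and 32.3% in T cells.

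Few promoters went from low in one cell type to high in the other. At 20% or below in both B cell files and 80% or above in both T cell files were 5, and 2 met these limits in the reverse direction. With a looser upper limit, at 20% or below in both B cell files and 50% or above in both T cell files were 8 promoters, those of Ms4a1, Fcmr, Fcrla, Igll1, Fam129c, Fcer2a, Gm5431 and Btnl1. The reverse held for 5, those of Cd3g, Themis, Ms4a6b, Trat1 and Gm33543. Over all 2757 promoters, the B minus T values of females and those of males had a Pearson correlation of 0.720 and a Spearman correlation of 0.330, and the Pearson value was 0.371 over the promoters not called. Promoters are not independent replicates, and these values are descriptions. Without the male B cell file the calls came to 62, with 22 of these higher in B, and without the female B cell file 28 were higher in B cells. With a dispersion prior from all promoters, or by limma on log2 ratios, none was called, with 275 and 345 at an unadjusted p under 0.05.

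**Figure D4:**
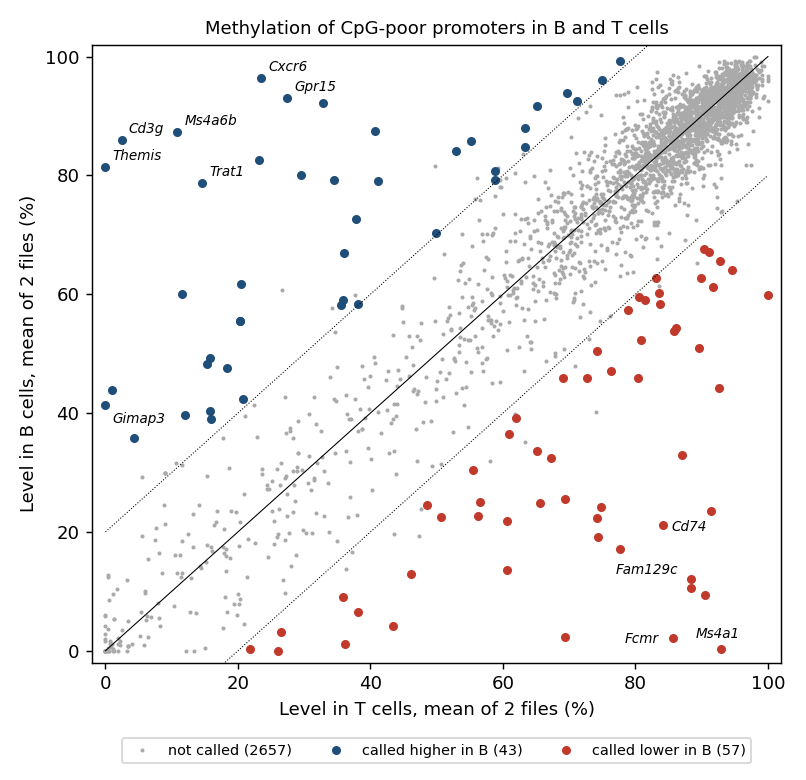
Methylation level (%) of the 2757 CpG-poor promoters in T cells (horizontal) and B cells (vertical), each the mean of the female and male files. Solid line, equal levels; dotted lines, 20 points apart. The 57 promoters called lower in B cells (red) and the 43 called higher (blue) lie away from the methylated cluster at the upper right.

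Genes of the B lineage led the promoters that were lower in B cells. Of 15 B lineage genes among the CpG-poor promoters, 9 were called lower in B cells (2.07% over all CpG-poor promoters) and none higher, with a median B minus T of -24.0 points against -0.175 over all CpG-poor promoters. The gene lists were chosen with earlier results of these data known, so these counts and medians are descriptions. Ms4a1, which encodes the B cell surface protein CD20 (chr19:11265741-11266741), was at 0.752% and 0% in B cells and 93.4% and 92.4% in T cells. Its mean difference was -92.5 points (quasi-binomial adjusted p = 1.80e-15), and the 0 of 216 reads in male B cells allow up to 1.39%. Fcmr, the IgM Fc receptor (chr1:130865169-130866169), was at 2.15% and 2.13% in B cells and 83.6% and 87.8% in T cells, a difference of -83.6 points (adjusted p = 2.06e-07). The gene Fcmr also has a CpG-rich annotated start. Fcrla, an Fc receptor-like protein of B cells (chr1:170927083-170928083), was at 7.24% and 11.6% in B cells and 90.4% and 90.7% in T cells. In these 3 genes B cells had little methylation and T cells were highly methylated.

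Other B lineage genes switched less completely. Cd74, the invariant chain of MHC class II, was at 19.7% and 22.5% in B cells and 83.9% and 84.3% in T cells. Fcer2a, the low-affinity IgE receptor CD23 (chr8:3693675-3694675), rested on 4 CpGs and differed by -60.5 points. Spib, an Ets-family transcription factor (chr7:44531571-44532571), was at 26.7% and 21.6% in B cells and 72.0% and 77.6% in T cells. Bank1, a scaffold protein of B cell receptor signalling, was at 2.94% and 3.25% in B cells and only 27.3% and 25.7% in T cells, and was not called in windows of 250 bp (-17.6 points) or 1000 bp (adjusted p = 0.0552). H2-Aa and Fcrl5 were called at -24.0 and -23.7 points, but neither was called without the male B file (adjusted p = 0.104 and 0.203), without the male T file (0.123 and 0.0666) or in windows of 250 bp (0.0703 and 0.0681). H2-Aa was also not called without the female B file (0.272), nor Fcrl5 with 10 reads per CpG (0.0946) or in windows of 1000 bp (-15.9 points). Blk, a B cell Src-family kinase, had no methylated read in B cells and was at 9.20% and 15.1% in T cells, so it passed the test (adjusted p = 0.00647) but not the 20-point limit. H2-Eb1 had 3 CpGs and was at 29.6% and 40.7% in B cells and 60% and 66.7% in T cells (adjusted p = 0.220). Ciita, Cxcr5, H2-Ab1 and Btla were not called, with differences between -7 and 1.06 points.

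Among the promoters lower in B cells outside that list, Igll1 stood near the top. Igll1 encodes lambda5 of the surrogate light chain, which is used in B cell progenitors (chr16:16863485-16864485). It was at 10.1% and 11% in B cells and 85.7% and 91.0% in T cells, a difference of -77.8 points (adjusted p = 3.98e-07). Fam129c (chr8:71597148-71598148), which has a CpG-rich annotated start, differed by -76.4 points, with 15.6% and 8.40% in B cells. Next by size of the smaller of both differences came Nup160, a nuclear pore gene (-67.9 points), Gm5431 (-67.0), Aif1 (-54.1), the MHC class II gene H2-Eb2 (-55.2), Sapcd1 (-51.9), Haao (-43.8) and the SLAM-family receptor gene Slamf7 (-48.3). Zp1, an egg coat protein gene in the list of germ cell genes, was at 36.2% and 28.8% in B cells and 70.1% and 64.5% in T cells. Ceacam1, a cell adhesion receptor gene, was at 0% and 0.625% in B cells and 22.6% and 21% in T cells, and fell under the 20-point limit with 10 reads per CpG (-19.1 points) and in windows of 250 bp (-15.2) and 1000 bp (-14.6). Fcgrt, Ms4a4c, Cyp4f18 and Slc17a4 were called at -21.5 to -30.5 points, and none of these 4 in windows of 1000 bp. Without the male B file Fcgrt and Cyp4f18 were not called, nor Fcgrt without the female T file and Cyp4f18 without the female B file.

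T lineage genes moved in the other direction. Of 8 among the CpG-poor promoters, 5 were called higher in B cells and none lower, against 1.56% called higher over all CpG-poor promoters. Their median B minus T was 46.6 points, against -0.175 over all. This list was likewise chosen with earlier results known, and its values are descriptions. Cd3g, the gamma chain of the CD3 complex (chr9:44979931-44980931), was at 87.6% and 84.3% in B cells and 2.19% and 2.71% in T cells, a difference of 83.5 points (adjusted p = 4.15e-08). Themis, a regulator of T cell receptor signalling (chr10:28667860-28668860), was at 85.0% and 77.8% in B cells and had 0 methylated reads in 118 and 94 in T cells, which allow up to 2.54% and 3.19%. Trat1, an adaptor of the T cell receptor (chr16:48771521-48772521), was at 77.8% and 79.7% in B cells and 13.2% and 16.0% in T cells. Ms4a6b, on 3 CpGs (chr19:11516012-11517012), differed by 76.4 points, and Txk, a Tec-family kinase, by 29.1 points. Of those not called, Cd28 was methylated in all files, at 89.2% to 94.7%, and Il7r, the IL-7 receptor gene, was at 25.6% to 31.1%.

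Among the promoters with the largest higher level in B cells were those of several receptors. Cxcr6, a chemokine receptor gene (chr9:123805975-123806975), was at 97% and 95.6% in B cells and 25.7% and 21.2% in T cells. Gpr15, a gut-homing receptor gene (chr16:58718570-58719570), was at 92.5% and 93.6% in B cells and 28.4% and 26.5% in T cells. Tigit, an inhibitory receptor gene (chr16:43663646-43664646), was at 80.7% and 79.3% in B cells and 34.7% and 24.3% in T cells. In the list of cytotoxic and NK cell genes, 2 of 11 were called, both higher in B cells (1.56% over all CpG-poor promoters), and the median B minus T of the list was only 4.87 points. The called genes were Gzma, with 41.6% and 56.8% in B cells and 15.1% and 16.5% in T cells, and Nkg7, with 41.1% and 39.5% against 15.8% and 15.8%. Without the male B cell file Gzma was not called (adjusted p = 0.0895). Gzmb was at 74.2% and 81.7% in B cells and 73.3% and 72.9% in T cells and was not called. Klrk1, an activating receptor gene, went the other way without a call, at 70% and 60.7% in B cells and 91.8% and 86.7% in T cells (adjusted p = 0.0959). The defining NK cell markers Ncr1 and Klrb1c were at 82.9% to 91.4% in the T cell files. The CD8 markers, whose promoters are CpG-richer, were at 27.8% and 22.6% (Cd8b1) and 53.3% and 55.5% (Cd8a) there. The T cell sort depleted cells bearing CD8a and DX5, and the part of other cells in these values was not tested.

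The remaining promoters with the largest higher level in B cells were of mixed function. Gimap3, a GTPase gene of lymphocytes, was at 43.6% and 39.0% in B cells and had 0 methylated reads in 64 and 61 in T cells, which allow up to 4.69% and 4.92%. Slfn2, a quiescence factor of T cells, was at 29.9% and 41.7% in B cells and 4.72% and 3.97% in T cells. Ntrk3, a neurotrophin receptor gene, and Dgke, a diacylglycerol kinase gene, each differed by 59.3 points, and each has a CpG-rich annotated start. The phosphate transporter gene Slc34a3 differed by 46.7 points, Gm33543 by 48.4 and Gm17571 by 44.9, the last of these not being called without the female B or the male B file. Gbp6 and Gm43302 shared the same 3 CpGs and count as 1 measurement, with 35.2 points (adjusted p = 0.0448). This call was lost whichever file was left out (adjusted p = 0.119 to 0.152). Serpinb9, an inhibitor of granzyme B, was called at 21.3 points with both cell types mostly methylated, at 95.1% and 89.8% in B cells and 72.7% and 69.6% in T cells. It was not called without the female B, male B or male T file.

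**Figure D5:**
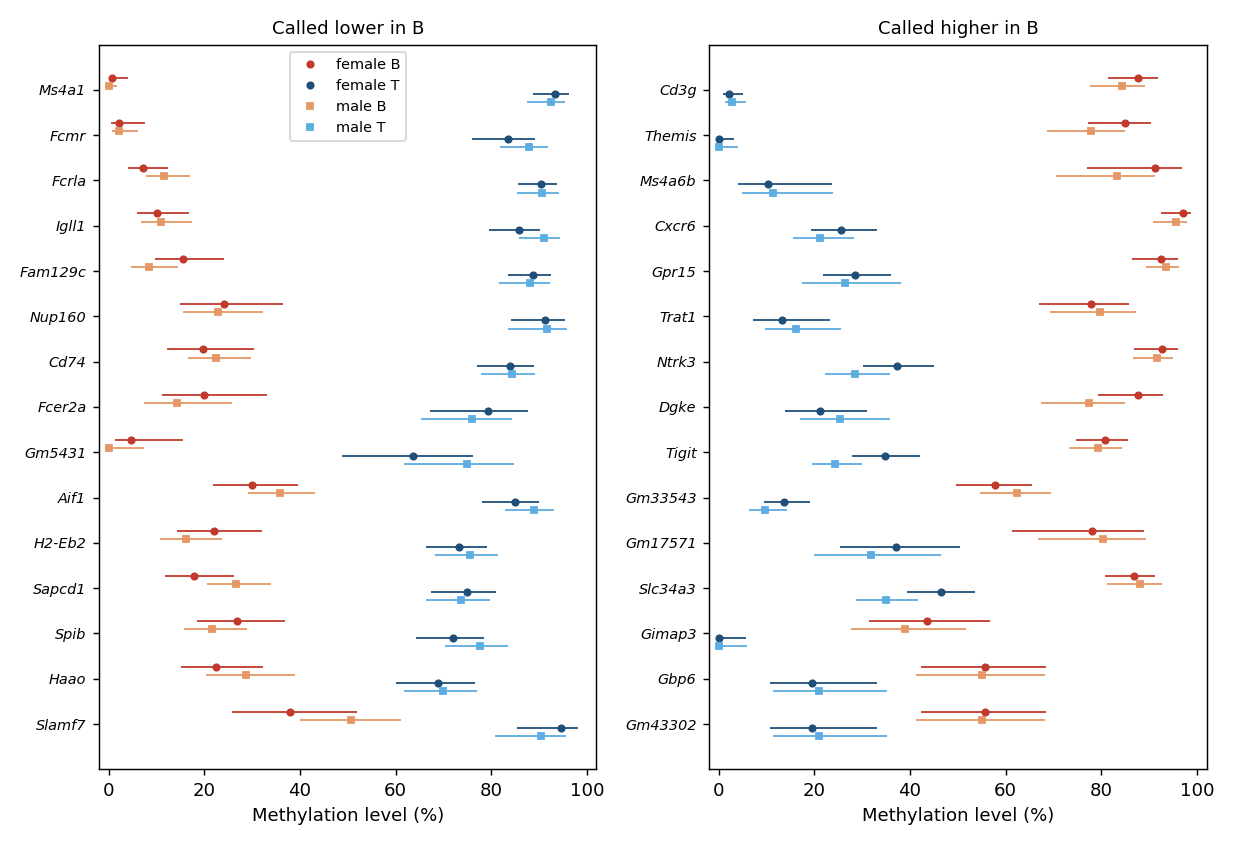
Methylation level (%) in each file, with the Wilson 95% interval of its reads, for the 15 called CpG-poor promoters with the largest smaller-of-both-sexes difference in each direction. B cell points (red and orange) and T cell points (blue) do not overlap at any of these promoters, and the differences are largest at Ms4a1 (-92.5 points) on the left and Cd3g (83.5 points) on the right.

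The size of several differences depended on the window. With 1000 bp to either side, where more distant CpGs enter, the calls of Gpr15 (17.1 points), Gzma (12.9), Slfn2 (14.2), Serpinb9 (16.0) and Gm17571 (20.2, adjusted p = 0.0603) were lost. The differences of Fcmr (-50.8 points), Ms4a6b (45.5), Nup160 (-38.4), Aif1 (-31.3), Sapcd1 (-31.5), Slamf7 (-22.0), Zp1 (-22.7), Ntrk3 (35.5), Slc34a3 (23.1) and Tigit (30.002) shrank by over 1.5 times there and were still called. With 250 bp to either side Aif1 shrank to -28.4 points and the calls of Nkg7 (19.995) and Slc17a4 (-9.55) were lost, while Ntrk3 (89.6), Zp1 (-54.0) and Ms4a4c (-60.8) grew by over 1.5 times. Ms4a4c was at -10.4 points with 10 reads per CpG and was not called there.

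Close to the limits the calls were less certain. Just inside 20 points were Perm1 at -20.3 points (adjusted p = 0.0277), Wfdc11 at 20.3 (0.0215) and Neurl3 at 20.4 (0.0300). Just outside were Smim18 at -19.7 points (adjusted p = 0.00713), Cd101 at 19.6 (0.00928) and Msantd1 at 19.6 (0.0215). Over 20 points but with an adjusted p just above the threshold were Gramd1a at 21 (0.0515), 9430069I07Rik at -22.2 (0.0515) and Tinag at 23.5 points (0.0537). Of the 100 called, 17 had a CpG-rich annotated start and 10 had more than 10 reference CpGs.

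No CpG-poor promoter was called between females and males. In the quasi-binomial test 0 were called between the sexes (background 0%), and 32 of 2757 (1.16%) had an unadjusted p under 0.05, against 5.65% of all tested promoters. Fisher's exact test and limma on log2 ratios also called 0. By Fisher's test 3 had an unadjusted p under 0.05 in both cell types, a stricter count than the 76 with a single such p by limma. The SD of female minus male over the promoters was 4.16 points, against 9.89 points for B minus T. A mean difference of 20 points was reached by Ceacam9 alone, at 73.1% and 45.7% in B cells and 70% and 54% in T cells, over 46 to 52 reads per file (adjusted p = 0.841). The lowest adjusted p belonged to Slamf8 at -14.1 points (0.782). The sex differences of the promoters in B cells had a Pearson correlation of 0.0427 with their sex differences in T cells. The dispersion of read counts relative to binomial counting error averaged 1.13 at these promoters, and the value used in their tests, after squeezing toward the prior, averaged 1.72. At promoters with more than 10 covered CpGs these averages were 2.30 and 1.81. The tests were thus stricter at CpG-poor promoters and looser at the others than their own dispersion, so the shares of 1.16% and 5.65% are not directly comparable.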

How the data were processed

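Whole-genome bisulfite libraries were processed by the authors. The submitters' processing notes name Trim Galore, FastQC, Bismark 0.13.1 and mm10. How duplicates were treated and the conversion rate are not given in the sources used here. Each deposited file lists CpGs with the methylation level as a fraction and the read count of each CpG. Methylated reads were recovered as the rounded product of fraction and count, and no fraction differed from the ratio of recovered to total reads by more than 0.000995. The level of a promoter pools the reads of its covered CpGs.

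Members and gene lists were chosen with earlier results of these data known. Reads of each of 19427 promoters with 3 or more covered CpGs entered quasi-binomial logistic regression (cell type and sex, 1 residual degree of freedom; R 4.3.3). Dispersions were squeezed with squeezeVar (limma 3.58.1), the prior coming from promoters with at least 5 expected reads of each kind in every file, and p-values were adjusted by Benjamini-Hochberg. The fit was tested on simulated data. The spread between the 4 files of a promoter has 1 degree of freedom. The prior has 12.6 and a dispersion of 1.77, drawn from 12918 promoters. The p-values therefore rest mostly on counting error scaled by this shared value, and little on the spread between files of a single promoter.

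Named genes were the 15 called promoters in each direction with the largest smaller-of-both-sexes difference, the 15 unmethylated ones with the lowest Wilson 95% upper limit, listed genes that were called or unmethylated, and those next to the limits. Of the listed genes, 1 was left out of the text. Alternatives were 10 reads per CpG, windows of 250 and 1000 bp, reference CpG number, unshared CpGs, means over CpGs, other level limits and thresholds, other dispersion priors, Fisher's exact test, limma on log2 ratios (pseudocount 1), no term for the other factor, tests without Olfr and Vmn genes, and each file left out. Figures were drawn with matplotlib 3.10.9.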

Additional observations from a re-analysis of the deposited data

How the results depend on the processing

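Promoters called between B and T cells (100; 43 higher and 57 lower in B cells) numbered within 1.5 times of these with 10 reads per CpG, other windows, reference CpG number, unshared CpGs, Fisher's exact test, no term for sex, no Olfr and Vmn genes, and a 10-point threshold. At 30 points 58 were called (25 higher, 33 lower). With a dispersion prior from all promoters or by limma 0 were called, 0 higher and 0 lower. At an unadjusted p under 0.05 were 275 with that prior and 345 by limma. The prior from all promoters had 1.54 degrees of freedom and a dispersion of 0.726, against 12.6 and 1.77 in the main fit. The cause of the lost calls was not tested. With 1 file left out, where the sex term is dropped and the lone file is assumed to vary like the others, calls ran from 62 to 89 (22 to 35 higher, 40 to 54 lower). The prior and limma leave the levels as they are, and the files of called promoters do not overlap, so direction could not change in any of these. They fell by over 1.5 times without male B cells (62, 22 of these higher) and, for those higher in B cells, without female B cells (28). With 1000 bp to either side, 53 of the 100 were still called. With 250 bp, 66 of the 84 measured were still called and 81 kept their direction. The 83 unmethylated promoters numbered 119 of 1953 measured with 250 bp to either side, 50 with 1000 bp to either side, 49 with limits of 10 and 90% and 135 with limits of 30 and 70%. The 1465 methylated ones numbered 536 and 1968 with those limits. With 3 to 10 reference CpGs and no CpG-rich annotated start, an alternative chosen after seeing the data, 53 were unmethylated and 76 were called. No promoter was called between the sexes under any alternative run. The 44 called promoters named for the largest differences or from the lists gave 554 further values, of which 420 still passed the limits applied, 134 did not (46 of these outside limma and the prior from all promoters) and 0 reversed. Called promoters named for other reasons (Perm1, Wfdc11, Neurl3, Ifi47, Ifit3 and Btnl1) were not among the 44. Means over CpGs were held to the 20-point limit alone, with no test. No paired analysis was possible because the labels share no replicate numbers between groups. Sex was a term of the model, and Fisher's exact test was run within each sex. Levels resting on few reads, such as 16 in the thinnest promoter, limit the small differences that could be seen.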
